A study of Mus musculus with 15 samples.

Results

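H3K27Ac was compared between 12 and 24 h post-induction (hpi) of a switch from pre-B cell to macrophage, using 2 of the 15 ChIP-seq libraries of the study. The libraries were chosen by mark and time alone. Both came from C10 cells, a line derived from the mouse pre-B line HAFTL that carries C/EBPα fused to the hormone-binding part of the estrogen receptor (C/EBPαER) with GFP. The 12 hpi and 24 hpi cells had been given β-estradiol together with IL-3 and CSF-1 for those times, and the 0 hpi cells, which serve only as a reference, had not been induced. The fusion is present at every time, all cells descend from 1 line, and there was 1 library per mark and time. No difference could therefore be set against replicate error, no test between times was possible, and each interval below covers counting error only.

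Acetylation of lysine 27 of histone H3 is placed by P300 and CBP at the starts of active genes and at active enhancers, which often lie far from the genes they act on. H3K4Me1 marks enhancers whether active or not. Pre-B cells depend on EBF1 and PAX5 and divide quickly. Macrophages rely on PU.1, the C/EBP factors and AP-1, carry receptors for microbes, antibodies and complement, and largely stop dividing.

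The deposited files held 16.98 M tags at 12 hpi and 18.56 M at 24 hpi. After keeping 1 tag per position on chromosomes 1 to 19 and X and thinning to equal depth, each library had 16.34 M tags. A 3 kb window held 20.2 tags on average. The level of a window is its tags over that mean, and a change is log2 of the tags at 24 hpi over those at 12 hpi, with 5 tags added to each. A window was called higher or lower, or past 2-fold, when the change was at least 1 in size, and measured when the mean of both levels was at least 2. Because that mean includes the library in which a window is high, some called windows entered through 1 time only. All coordinates are mm9.

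The 24 hpi library was the more enriched of the pair, and this sets how the changes read. In 1 kb bins holding at least 17 tags lay 78.2% of its tags, against 66.5% at 12 hpi (95% Wilson intervals, for counting error only, 78.15 to 78.19% and 66.49 to 66.53%). The number of such bins was closer, at 136574 and 129223. Outside enriched bins, a 3 kb window held 3.92 tags at 24 hpi and 6.37 at 12 hpi. Equal total depth therefore gives a window of unchanged background a negative change, and gives enriched windows the tags that the background lacks. Setting the background bins equal adds 0.70 to a log2 change before the 5 tags are added, and less in windows of few tags. Setting the 113094 bins enriched in both libraries equal likewise takes off up to 0.15. A window counted as called under all 3 scalings had to pass 2-fold under both of these scalings as well. The 2 deposited files also differed in form: the 12 hpi file opened with chromosome 2 and held tags on unplaced chromosomes, and the 24 hpi file opened with chromosome 1 and held none. This difference in form and the time cannot be told apart. The 48 hpi file has the form of the 12 hpi file and is used below as a library whose tags in a window entered no call.

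Sequences of a few named windows are shown first, because the windows that changed differed in the short motifs they held. Capitals mark matches, on either strand, to the 1 motif for which a run is shown, and matches to other motifs are not marked. TGANTCA is bound by AP-1, the dimer of FOS and JUN proteins, and CCCNNGGGA by EBF1. TTGCNNAA is bound by C/EBP proteins, and CCAAT, read as ATTGG on the other strand, by NF-Y. The rising windows are given with AP-1 or C/EBP and the falling windows with EBF1 or CCAAT. These pairs were chosen after their shares had been seen. For C/EBP the share in risen distal windows, 41.5%, was close to the 37.2% of all measured ones. The promoter runs end 101 bp before the annotated start of F2rl2, 99 bp before that of Tnfsf14, 18 bp before that of Cenpf and 1 bp before those of Aspm and E2f7.
F2rl2, promoter, chr13:96466608-96466707, plus strand: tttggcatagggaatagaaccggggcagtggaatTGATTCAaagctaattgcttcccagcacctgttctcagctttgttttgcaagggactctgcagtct
Tnfsf14, promoter, chr17:57333711-57333810, minus strand: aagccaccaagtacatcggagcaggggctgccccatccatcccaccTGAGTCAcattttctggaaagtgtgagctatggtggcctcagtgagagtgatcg
Slc39a14, upstream window, chr14:70754015-70754114, plus strand: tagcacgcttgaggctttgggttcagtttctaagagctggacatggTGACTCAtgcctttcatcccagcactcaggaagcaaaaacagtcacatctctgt
Atp10b, intron window, chr11:42996585-42996684, plus strand: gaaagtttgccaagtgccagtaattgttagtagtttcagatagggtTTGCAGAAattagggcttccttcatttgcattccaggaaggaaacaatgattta
Gab3, intron window, chrX:72279623-72279722, plus strand: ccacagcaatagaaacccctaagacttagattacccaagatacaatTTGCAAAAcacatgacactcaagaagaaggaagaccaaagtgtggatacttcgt
Cenpf, promoter, chr1:191511983-191512082, minus strand: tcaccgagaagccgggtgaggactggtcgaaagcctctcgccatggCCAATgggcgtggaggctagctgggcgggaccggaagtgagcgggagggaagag
Aspm, promoter, chr1:141351250-141351349, plus strand: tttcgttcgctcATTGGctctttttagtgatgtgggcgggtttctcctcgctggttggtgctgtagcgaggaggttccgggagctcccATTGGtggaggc
E2f7, promoter, chr10:110182395-110182494, plus strand: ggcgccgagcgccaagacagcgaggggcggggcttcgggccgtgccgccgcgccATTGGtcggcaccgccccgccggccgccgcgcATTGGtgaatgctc
Col5a3, intron window, chr9:20594688-20594787, plus strand: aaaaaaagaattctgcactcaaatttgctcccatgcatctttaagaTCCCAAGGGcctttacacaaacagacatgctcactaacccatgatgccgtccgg
Cryaa, downstream window, chr17:31871850-31871949, plus strand: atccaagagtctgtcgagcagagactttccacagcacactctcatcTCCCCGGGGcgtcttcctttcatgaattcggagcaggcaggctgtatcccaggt

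Between 12 and 24 hpi acetylation changed past 2-fold at few gene starts and at many distal windows, sets that also differed in level, as given below. Of 22350 starts of protein-coding genes 10412 were measured, and 142 of these were called higher (1.36%) and 128 lower (1.23%). Of 45277 distal windows, whose centres lay over 2500 bp from any annotated start, 35151 were measured. A distal window can thus overlap the edge of a window at a start. There, 4101 were called higher (11.7%) and 633 lower (1.8%). The median change was 0.08 at starts and 0.21 in distal windows. The middle 50% of changes ran from -0.11 to 0.23 at starts and from -0.13 to 0.60 in distal windows, so the distal changes were the wider. The percentages above are the background for each count of members below.

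The counts of rises and of falls both depended on the scaling. With background bins set equal, 1634 starts were higher (15.7%) and 28 lower (0.269%), and 14666 distal windows were higher (41.7%) and 65 lower (0.185%). With bins enriched in both set equal, 105 starts were higher (1.01%) and 180 lower (1.73%), and 2977 distal windows were higher (8.47%) and 997 lower (2.84%). The median of all starts was 0.77 and -0.07 under these scalings, and that of distal windows 0.89 and 0.06. Under all 3 scalings 105 starts were higher and 28 lower, and 2977 distal windows were higher and 65 lower. After the background tags of each library were taken off, 166 starts were higher (1.59%) and 130 lower (1.25%), with 4878 distal windows higher (13.9%) and 662 lower (1.88%). With the median of windows of like level set to 0, 153 starts were higher (1.47%) and 105 lower (1.01%), and 2637 distal windows were higher (7.5%) and 1253 lower (3.56%). More distal windows were higher than lower under each of these settings, whereas the starts had more falls than rises when bins enriched in both were set equal. The same held at starts with the median of windows of like GC set to 0 (114 higher and 151 lower) and with no filter on level (213 and 1211).

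**Figure D1:**
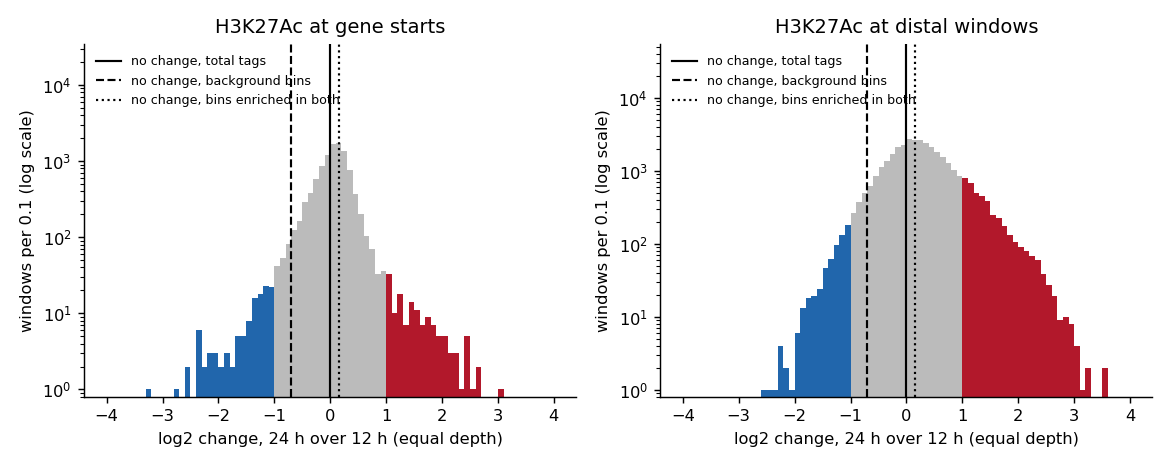
Number of measured windows (log scale) by log2 change of H3K27Ac from 12 to 24 hpi at equal depth, in steps of 0.1, at gene starts and in distal windows, with 1 library per time. Red and blue bars are windows past 2-fold higher and lower, and the vertical lines show where no change falls under each scaling. The distal histogram is wider and reaches further to the right, and the 0.70 between the solid and dashed lines is larger than most changes at starts.

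The level of a window bore on the change at starts more than in distal windows. Starts with a mean level of 2 to 4 had a median change of -0.15, and 5.58% were higher and 6.42% lower. Starts with a level of 32 or more had a median of 0.17, and 0.248% were higher and 0 of 1212 lower. With background taken off, the median at the low starts was -0.11. In distal windows the medians lay between 0.17 and 0.24 in all 5 classes of level, and the share called higher was 11.4% at a level of 2 to 4, 15.0% at 4 to 8 and 1.73% from 32. At a level of 2 to 4, 2.70% of distal windows were lower. That class held 13206 of the 35151 measured distal windows but 825 of the 10412 measured starts. The contrast between starts and distal windows was thus not matched for level. Across windows, Spearman's rho of the change with the mean level was 0.34 at starts and 0.06 in distal windows. These windows share both libraries and are no replicates.

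The 10 named starts with the largest rises included those of receptors, proteases, a cytokine, a small GTPase and an oxidoreductase. Adam8, a membrane metalloprotease of leukocytes, had 32 tags at 12 hpi and 225 at 24 hpi in chr7:147176961-147179960. Its change was 2.64 (interval of the tag ratio 2.28 to 3.40). Clec4d and Clec4e, C-type lectin receptors for mycobacterial glycolipids that lie beside each other on chromosome 6, went from 81 to 522 and from 84 to 492 tags. Their changes were 2.62 (2.35 to 3.04) and 2.48 (2.21 to 2.90), and both were near background at 0 hpi, with levels of 0.11 and 0.16.

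Tnfsf14, which encodes the TNF family cytokine LIGHT, had the most tags of the 10 starts named, with 125 at 12 hpi and 685 at 24 hpi (change 2.41, interval 2.18 to 2.74). F2rl2, a receptor cleaved by thrombin, had 38 and 252 tags (2.58, interval 2.23 to 3.26). The AP-1 matches printed above lie in the promoters of these starts. Klra2, of the Ly49 family of lectin-like receptors, had 16 and 113 tags. Prss22, a tryptase, had 28 and 172.

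Lilrb4, an inhibitory Ig-like receptor, had 80 and 389 tags (2.21, interval 1.93 to 2.65). Its window overlaps that of its paralog Gp49a, so the tags of the pair cannot be assigned to either. Rab19, a small GTPase, had 22 and 137 tags, and Aifm2, an oxidoreductase that limits lipid peroxidation, had 13 and 78. The H3K4Me1 changes of the 10 starts lay between 0.22 and 1.38, while the median of all starts was -0.31.

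The 10 named starts with the largest falls included several of genes that act in mitosis. Cenpf, which binds kinetochores, had 120 tags at 12 hpi and 8 at 24 hpi in chr1:191510465-191513464, a change of -3.27 (interval -5.15 to -2.88). Cdc25c, the phosphatase that activates Cdk1 at the entry into mitosis, had 153 and 18 (-2.78, interval -3.88 to -2.38). Aspm, a spindle pole protein, had 239 and 36 (-2.57, interval -3.28 to -2.22). At 24 hpi these starts held levels of 0.40, 0.89 and 1.78, so the first 2 were below the genome mean.

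Nusap1, which bundles spindle microtubules, had 182 and 31 tags, in a window that overlaps the start of Oip5, a factor for loading the centromeric histone. Pbk, a mitotic kinase, had 109 and 17, and Ube2c, which passes ubiquitin to substrates of the anaphase-promoting complex, had 318 and 65. Shcbp1 had 130 and 22. E2f7, a repressor of E2F target genes, had 115 and 18 tags, and Neil3, a DNA glycosylase, had 160 and 30.

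Cplx2, a complexin of regulated secretion, is no cell cycle gene and was the highest of the 10 at the outset. Its levels at 0, 3, 12, 24 and 48 hpi were 67.3, 53.4, 15.0, 2.43 and 0.74. It was thus already below its 0 hpi level at 12 hpi. Several others were also lower at 12 than at 0 hpi. Pbk went from 13.3 to 5.40, E2f7 from 11.4 to 5.70, Nusap1 from 17.1 to 9.02, Neil3 from 15.3 to 7.93 and Aspm from 15.97 to 11.85 between these times. Cdc25c (7.35 and 7.59), Ube2c (17.5 and 15.8) and Shcbp1 (6.87 and 6.45) were nearer to their 0 hpi levels at 12 hpi, and Cenpf went from 7.45 to 5.95. H3K4Me1 at the 10 starts did not share a direction, with changes from -0.61 at Shcbp1 to 0.68 at Ube2c.

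**Figure D2:**
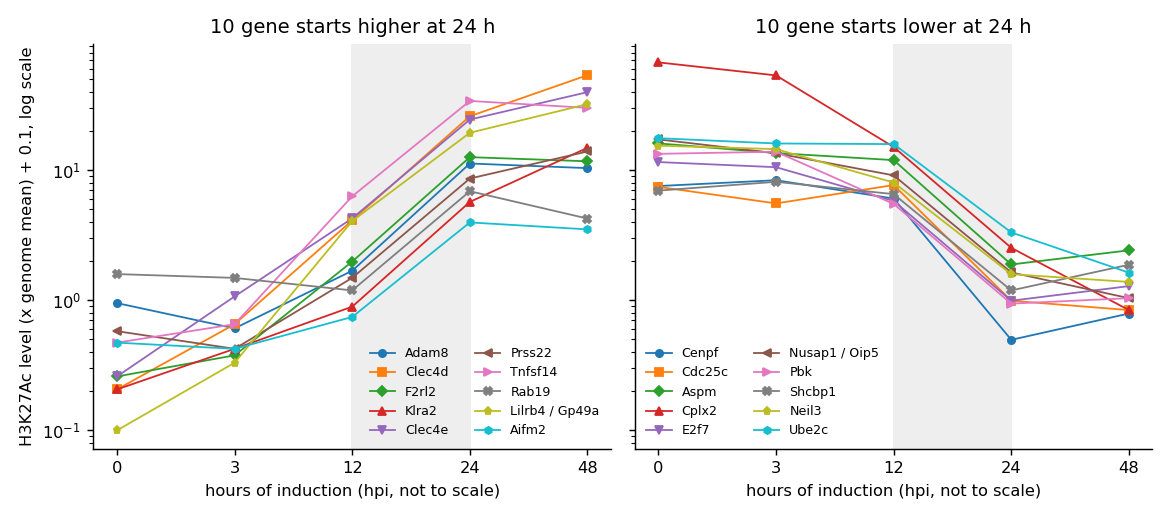
H3K27Ac level, as tags over the genome mean with 0.1 added (log scale), at 0, 3, 12, 24 and 48 hpi for the 10 named starts that were higher at 24 hpi (left) and the 10 that were lower (right). Each line is 1 start with 1 library per time, and grey marks the step from 12 to 24 hpi. The starts on the left lie between 3.87 and 34.0 at 24 hpi, and those on the right between 0.40 and 3.22.

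Starts were also counted by gene list. Of the starts named above, Clec4d, Clec4e and Lilrb4 are in the list of macrophage receptors and Cdc25c is in that of the cell cycle. The others are in no list. Of 44 receptors and surface markers of macrophages 32 were measured, 17 of which were higher and 0 lower, beside 1.36% and 1.23% of all starts. Their median change was 1.04. It was 1.72 with background bins and 0.90 with bins enriched in both set equal. The level filter keeps members that are high at 24 hpi only and drops low ones, and without it the median of the list was 0.77. The receptors for microbial molecules included Tlr7 (92 to 395 tags), Tlr8 (45 to 138), Tlr13 (69 to 191) and Cd14, the co-receptor for lipopolysaccharide (459 to 1124). Tlr2 (0.61), Tlr4 (0.60), Tlr9 (0.38) and Tlr6 (0.24) did not reach 2-fold, and Tlr1 was not measured.

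Among integrins and scavenger receptors, Itgax (CD11c) had 38 and 187 tags, Itgam (CD11b) 28 and 117 and Msr1, a scavenger receptor, 97 and 392. The integrin chain Itgb2 (384 and 546, 0.50) was not called, and the scavenger receptors Cd36 (24 and 23), Marco (7 and 1) and Cd163 (4 and 2) were not measured. Some antibody and complement receptors were called too. Fcgr4 had 97 and 369 tags, Fcgr1 206 and 506, their signalling chain Fcer1g 358 and 869, and C3ar1, the receptor for complement C3a, 63 and 239. The antibody receptor Fcgr2b (778 and 895 tags, 0.20) and C5ar1, the receptor for complement C5a (85 and 165, 0.92), were not called, and Fcgr3 (43 and 32 tags) was not measured. Csf1r, the receptor for CSF-1, had 216 and 522. Emr1, which encodes F4/80, had only 26 and 60, and it and Cd68 (369 to 751) were not past 2-fold when bins enriched in both were set equal. The smallest changes among measured members were 0.08 at Csf2ra and 0.13 at Csf2rb, the GM-CSF receptor chains.

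Inflammatory genes had a median change of 0.32 over 31 measured of 47, with 2 higher and 1 lower. Ccl2, the chemokine that draws monocytes, had 77 and 317 tags (1.97, interval 1.68 to 2.42), and Ccr1, a chemokine receptor, 420 and 918, which was not past 2-fold with bins enriched in both set equal. Cxcl10, an interferon-induced chemokine, had 60 and 24 (-1.16, interval -2.07 to -0.62) but was not past 2-fold with background bins set equal. The cytokines Il1b (0.70), Il6 (0.31) and Tnf (0.17) stayed short of 2-fold.

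Oxidase, granule and protease genes had 17 measured of 30, 2 higher, 0 lower and a median of 0.29. Both called members were secreted proteases: Mmp12, the macrophage elastase, with 220 and 737 tags, and Mmp19 with 78 and 199. Mmp9, a gelatinase, had 185 and 374 tags and fell just short. Elane and Prtn3, serine proteases of early granulocytes, had changes of -0.45 and -0.48. In the list for MHC class II, costimulation and interferon response 28 of 33 were measured, and Cd40 (78 to 192) and Cd74, the invariant chain (176 to 359), were called higher. Cd74 was not called with bins enriched in both set equal. The median of this list was 0.17.

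No start was called in the lists of myeloid transcription factors (25 measured of 31 with a start, median 0.23), lysosome (34 of 38, 0.21), lipid and iron handling (23 of 31, 0.21) or cytoskeleton and adhesion (33 of 37, 0.16). Sfpi1, which encodes PU.1, had 1521 and 1657 tags (0.12), Cebpb 535 and 637 (0.25) and Cebpa 76 and 69 (-0.13). Fos, a subunit of AP-1, had the largest change of these factors, with 257 and 430 tags (0.73, interval 0.52 to 0.97), and Mitf the most negative, with 94 and 74 (-0.33). Grn, the lysosomal protein progranulin, had 431 and 833 tags (0.94), and Lrp1, an endocytic receptor, 94 and 186 (0.95). These 4 medians were positive under the 3 scalings, as was the median of all starts under 2 of them.

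Of 32 measured starts of the pre-B receptor, B surface genes and their signalling 0 were higher and 2 lower, beside 1.36% and 1.23% of all starts, and the median was -0.0010. Vpreb2, part of the surrogate light chain, had 200 and 80 tags (-1.27, interval -1.71 to -0.94), and Faim3, an IgM Fc receptor, had 71 and 33. Neither was past 2-fold with background bins set equal. Cd79a had 747 and 652 tags, and Igll1 1448 and 1158. The largest positive change was 0.70 at Bst1. Blnk, an adaptor of the B cell receptor, had 476 and 682 tags (0.51).

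The 21 measured transcription factors of B cells had a median of -0.10 and no call. Myb (503 to 287 tags, -0.80), Spib (155 to 95, -0.68) and Aff3 (636 to 415, -0.61) were the most negative, Pax5 had 704 and 626 and Ebf1 751 and 680, and Bcl6 was the most positive (344 to 512, 0.57). The 11 measured genes of V(D)J recombination and its repair had a median of -0.05, from -0.70 at Hmgb2 to 0.42 at Dclre1c. With background bins set equal these 3 medians turned positive, at 0.70, 0.59 and 0.64, below the 0.77 of all starts.

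The cell cycle list had 47 of 48 starts measured, 1 higher and 10 lower, beside 1.36% and 1.23% of all starts. Its median was -0.20, and -0.35 with bins enriched in both set equal. With background bins set equal it was 0.49, which is positive but below the median of all starts, 0.77. The members were then split by phase, after their values had been seen, so the split is a description and supports nothing. The ranges of its groups overlapped. The 13 genes of G2 and mitosis had a median of -1.06 and 7 falls. Among them Plk1, the polo-like kinase, had 380 and 83 tags (-2.13, interval -2.56 to -1.85). The mitotic cyclins followed, with 216 and 75 tags at Ccnb1, 271 and 97 at Ccnb2 and 302 and 115 at Ccna2. Top2a, which untangles chromosomes, had 244 and 99, and Cdc20, an activator of the anaphase-promoting complex, 472 and 224.

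Not all mitotic genes were low. Aurkb, a mitotic kinase, had 734 and 739 tags, and Birc5, its partner survivin, 639 and 615. The 16 genes of DNA replication had a median of -0.39 and 3 falls: the helicase subunits Mcm5 (302 to 127) and Mcm3 (159 to 68) and the ribonucleotide reductase subunit Rrm2 (544 to 241). The other 18 members had a median of 0.07 and no fall. Cdkn1a, which encodes the inhibitor p21, was the rise, with 52 and 113 tags (1.05, interval 0.63 to 1.62), not past 2-fold with bins enriched in both set equal. Cdk4 (0.57) and Ccnd1 (0.55), of the first gap phase, came next. Plk1 and Cdc25c were lower under all 3 scalings.

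The lists without a lineage, ribosomal proteins and genes that every cell uses, had high median levels of 23.1 and 28.3 at 12 hpi. Their spread is thus no measure for starts of low level. The 48 ribosomal protein genes, all measured, had changes from -0.33 to 0.54 with a median of 0.05, and the 29 genes that every cell uses had changes from -0.29 to 0.47 with a median of 0.10. Neither list held a call, and among all measured starts of level 16 to 32 only 0.482% were higher and 0.107% lower. Lists for other lineages were mostly unmeasured, with 2 of 20 T and NK genes, 2 of 19 erythroid, megakaryocyte and stem cell genes and 1 of 27 developmental factors of other tissues passing the level filter. None of these 5 was called.

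**Figure D3:**
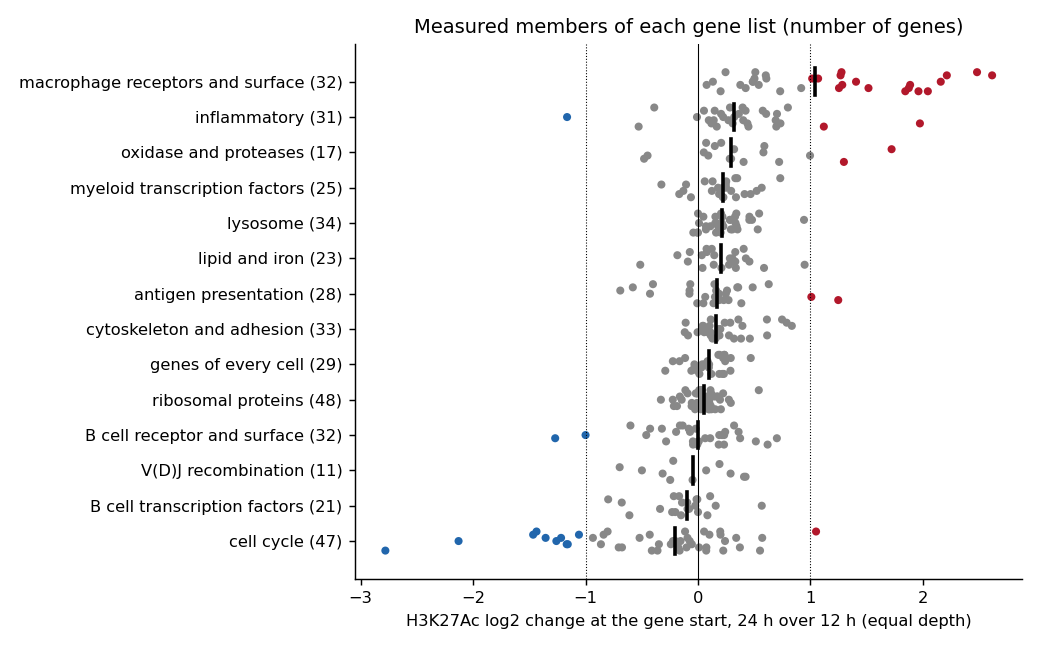
Log2 change of H3K27Ac at the start from 12 to 24 hpi (equal depth, 1 library per time) for the measured members of each gene list with at least 3 of them, each point 1 gene, red or blue past 2-fold (dotted lines). Black bars are list medians, from 1.04 for macrophage receptors to -0.20 for the cell cycle, and the blue points of the cell cycle reach -2.78.

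Summed over marker starts by total tags, 9 pre-B markers held 6597 tags at 12 hpi and 5905 at 24 hpi, and 10 macrophage markers 3118 and 5758. With background bins set equal, the tags at 24 hpi are multiplied by 1.63, which puts the pre-B sum higher at 24 than at 12 hpi. Single pre-B markers ranged from 26 to 1448 tags at 12 hpi and from 24 to 1158 at 24 hpi. The lowest was Rag1 at both times. The 4 granulocyte markers held 950 and 1364 tags, of which Camp gave 727 and 1202. Elane went the other way, with 212 and 154 tags, and Mpo (6 and 3) and Ltf (5 and 5) were near background. The 5 T cell markers held 28 and 16 tags and the 4 erythroid markers 145 and 99. Of the pre-B markers 8 of 9 passed the level filter, and of the macrophage markers 9 of 10. In a bulk sample, a change in part of the cells and a change in the level per cell cannot be told apart.

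The 6 named distal windows with the largest rises held 3 to 25 tags at 12 hpi, where background was 6.37, and reached levels of 4.31 to 16.8 at 24 hpi. In the intron of Atp10b, a phospholipid flippase, chr11:42995001-42998000 went from 25 to 339 tags (3.52, interval 3.17 to 4.41). The start of Atp10b itself, 33.1 kb away, had 3 and 3 tags. In the intron of Gpr158, an orphan receptor, chr2:21434001-21437000 had 25 and 259 tags, and the start of that gene had 4 and 1. The nearest start thus names a place, and not the gene the window acts on.

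The window chr14:22641001-22644000, at -7.99 kb from the start of Vdac2 (negative values are upstream), had 3 and 87 tags. The start of Vdac2, a channel of the outer mitochondrial membrane, had 563 and 671. An intron window of Gab3, an adaptor that acts below the CSF-1 receptor, had 7 and 112 tags (chrX:72278001-72281000), and the start of Gab3 128 and 124. At Slc39a14, a zinc and iron transporter, the window at -3.27 kb had 6 and 89 tags and the start 148 and 229 (0.61). At Sh3pxd2b, an adaptor of podosomes, the intron window at 2.68 kb had 19 and 221 tags and the start, whose window overlaps it and was not measured, 10 and 45. These counts share tags. H3K4Me1 was higher at 24 hpi in all 6 windows, by 1.08 to 1.87.

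The largest distal falls lay in introns and between genes. The window chr17:13826001-13829000 in the intron of Tcte2 had 109 and 15 tags (-2.51, interval -3.75 to -2.08), and chr9:20593001-20596000 in the intron of Col5a3, a collagen chain, 101 and 15 (-2.41, interval -3.64 to -1.96). A window in the intron of Foxn3, a forkhead repressor, had 220 and 39 (chr12:100495001-100498000). One in the intron of Samd4, an RNA-binding repressor, had 91 and 15, and the window at 56.6 kb from the start of Cryaa, a lens crystallin, 71 and 11. H3K4Me1 changes in these 5 windows lay between -0.91 and -0.37.

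The window chr17:39979001-39982000, between genes and 365 kb from the start of Pgk2, differed from the other falls. It had 614 and 122 tags, and its H3K4Me1 level went from 23.5 to 4.48. From general knowledge of the assembly, and not from the annotation used, which has no such gene there, this stretch may hold a copy of part of the ribosomal RNA unit. The genome carries that unit in many near-identical copies, so the origin of these tags is uncertain.

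Levels at 0, 3 and 48 hpi, from libraries whose tags in a window entered no call, placed the step in the time course. These libraries did help to choose the background bins and the bins over which the genome mean was taken. The 142 risen starts had median levels of 0.64, 1.11, 3.00, 9.40 and 10.3 at 0, 3, 12, 24 and 48 hpi. At 0 hpi 108 of these risen starts (76.1%) were below a level of 2, beside 4.16% of all measured starts. At 48 hpi 130 of them (91.5%) were at least 2-fold higher than at 0 hpi, beside 5.53% of all measured starts. Both shares follow in part from the call, which picks starts that are low at 12 hpi. The median level of risen starts at that time was 3.00, against 14.9 at all measured starts, so the groups were not matched for level. The 128 fallen starts had medians of 13.1, 10.4, 7.31, 2.33 and 2.32. In both groups the median level at 48 hpi was close to that at 24 hpi, while that of all measured starts went from 15.7 to 12.5. These levels are scaled by total tags only, and a difference in enrichment of the 48 hpi library was not taken into account.

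Distal windows followed the same order of levels. The 4101 risen windows had medians of 0.75, 1.11, 2.63, 7.62 and 8.89, and the 633 fallen windows 7.93, 6.98, 5.16, 2.03 and 2.02. Of the fallen windows 152 (24.0%) had been below a level of 2 at 0 hpi, a smaller share than the 39.1% of all measured distal windows. The medians of these 152 were 0.90, 2.96, 4.39, 1.62 and 1.63. Their higher value at 12 than at 0 and 24 hpi follows from how they were chosen. The window named by Cryaa, described above, was also below 2 at 0 hpi, with levels of 1.97, 4.02, 3.52, 0.55 and 1.04.

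**Figure D4:**
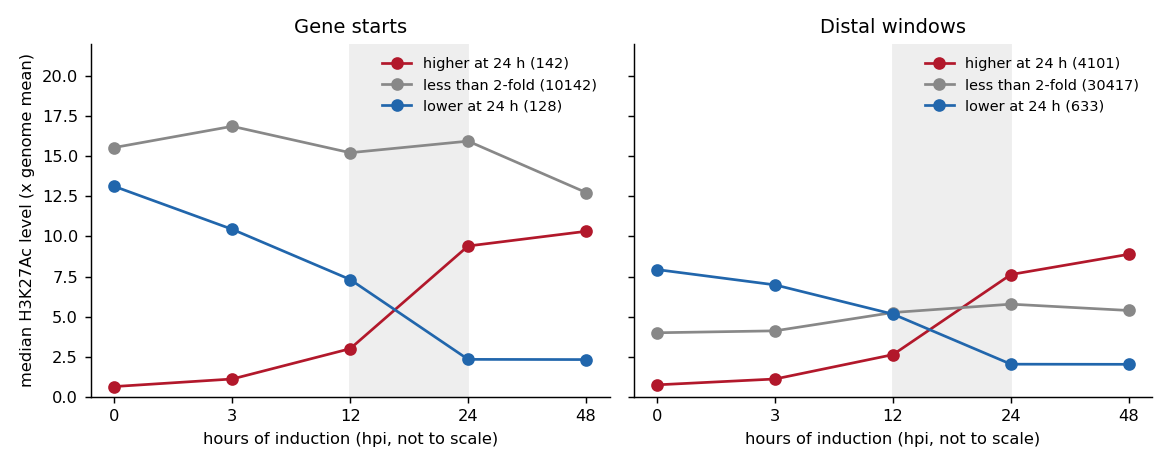
Median H3K27Ac level (tags over the genome mean) at 0, 3, 12, 24 and 48 hpi of windows called higher, lower or neither from 12 to 24 hpi (shaded), at gene starts and in distal windows, with 1 library per time and the number of windows in brackets. The red medians rise from 3.00 to 9.40 at starts and from 2.63 to 7.62 in distal windows, and both groups stay near their 24 hpi level at 48 hpi.

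H3K4Me1, measured in other libraries of the same times, moved with H3K27Ac in distal windows. Its median level went from 5.04 to 8.76 in risen windows (median change 0.72) and from 9.43 to 6.88 in fallen windows (-0.44), beside a median change of -0.06 over all measured distal windows. In 91.9% of the risen and 8.69% of the fallen windows the change lay above that median. Across distal windows, rho between the changes of the marks was 0.51. At starts it was -0.01, yet H3K4Me1 changes lay above their median at 122 of 142 risen starts, as well as at 72 of 128 fallen starts. The median level of H3K27Me3 in risen distal windows was 0.69 at 12 hpi and 0.58 at 24 hpi, beside 0.51 and 0.39 in all measured ones, and rho with its change was -0.03. At risen starts its median levels were 1.67 and 1.47, above the genome mean, beside 0.51 and 0.39 at all measured starts.

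**Figure D5:**
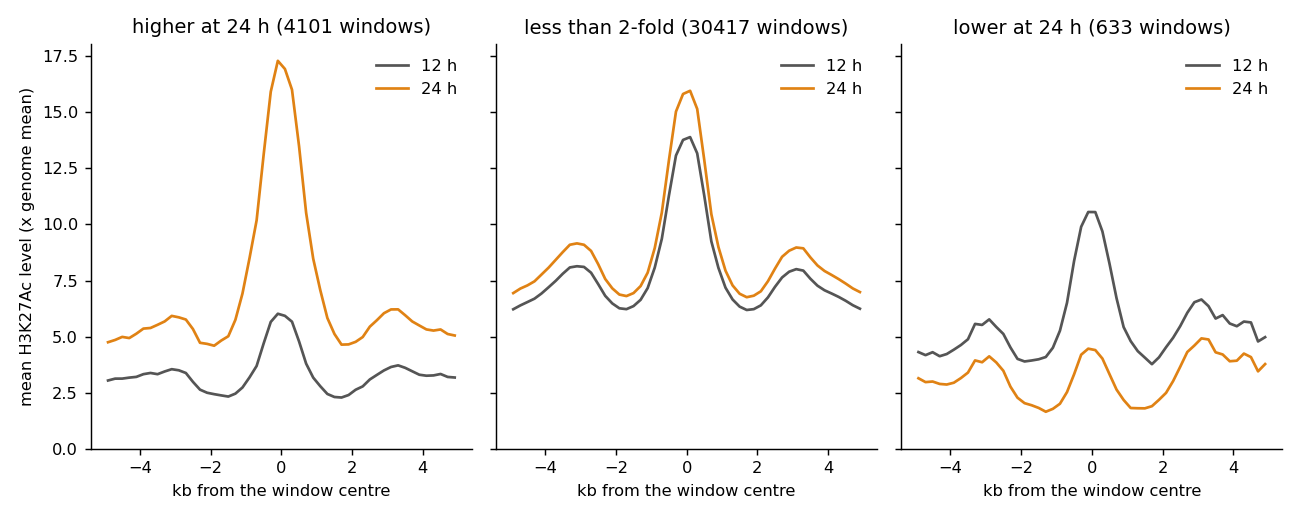
Mean H3K27Ac level (tags over the genome mean) by distance in kb from the centre of distal windows called higher, neither or lower, at 12 hpi (grey) and 24 hpi (orange), with 1 library per time. The peak of risen windows is present but lower at 12 hpi, and that of fallen windows is still visible at 24 hpi, and the shoulders 3 kb away mark neighbouring windows, whose centres were kept at least 3 kb apart.

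Risen starts and risen distal windows were often neighbours. Within 50 kb, 87 of 142 risen starts (61.3%) had a risen distal window, against 27.3% of all measured starts and 15.6% of fallen starts. Fallen starts had a fallen distal window in 17.2% of cases, against 4.59% of all. Some of these windows can overlap the start window and share its tags. With only windows centred over 5000 bp from the start counted, a choice made after seeing the data, the shares were 52.8% of risen and 25.7% of all starts for risen windows, and 11.7% of fallen and 4.15% of all starts for fallen windows. By nearest start, 87 genes held at least 5 risen windows. Myc, a growth-promoting transcription factor, had the most, 18 of its 42 windows, while its start changed by 0.37 (640 to 830 tags). Rbpj, the DNA-binding partner of Notch, held 15 of 30, Btg1, an antiproliferative gene, 14 of 24, and Pid1, an adaptor, 14 of 17.

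Distal windows were also counted by the list of their nearest gene. Of 180 windows nearest to macrophage receptors 38.3% were higher, beside 11.7% of all, and of 225 nearest to inflammatory genes 19.6%. For lysosomal genes the share was 16.2% of 142 windows, with no start called, and for myeloid transcription factors 13.7% of 255, both not far from the share of all windows. For T and NK genes it was 18.5%, or 5 of 27, and all 5 lay nearest to Gata3. Among the myeloid transcription factors the shares differed by gene, and those given were picked after their values were seen. Mitf had 4 of 4 windows higher although its start did not gain tags, Id2 6 of 37, Klf6 6 of 20 and Jun 5 of 20. Runx1 had only 3 of 68, and Irf8 had 0 of 18 higher and 1 lower. Sfpi1 had 0 of 5 and Cebpb 0 of 2. Of 506 windows nearest to B cell transcription factors 1.58% were higher and 1.78% lower, and Ebf1, with 64 windows, had 2 lower and a median change of -0.30. The cell cycle list had 41 of 192 windows higher, opposite to its starts. Of these 18 lay nearest to Myc and 10 to Mki67.

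Motif matches differed between risen and fallen windows, as called by total tags. With background bins set equal only 65 distal windows were lower, so most of the 633 fallen ones were not past 2-fold there. AP-1 was found in the middle 1000 bp of 48.1% of risen and 25.6% of fallen distal windows, against 33.2% of all measured ones. EBF1 went the other way, with 11.4% of risen, 28.9% of fallen and 15.7% of all. C/EBP was in 41.5%, 35.2% and 37.2%, the PU.1 motif GAGGAAGT in 14.6%, 11.7% and 12.8%, and the RUNX motif TGTGGTT in 27.4%, 24.2% and 25.3%. The interferon response motif was in 13.5%, 15.3% and 15.8%. Median GC content was 44.2% in risen, 45.9% in fallen and 44.9% in all windows. Both strands were searched, matches of different motifs may overlap, and a match is a run of letters and no evidence of binding.

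In the 200 bp before starts, AP-1 matched 13.4% of risen, 1.56% of fallen and 3.05% of all measured starts, that is 19, 2 and 318 of them. Of the 128 starts called lower by total tags, only 28 stayed past 2-fold with background bins set equal. C/EBP matched 12.7%, 6.25% and 5.85%. CCAAT, searched after the falls at mitotic genes had been seen, matched 23.2%, 50.8% and 32.5%. TTTGAA, the letters of the cell cycle homology region, also searched afterwards, matched 9.86%, 14.8% and 8.01%. Aspm and E2f7, printed above, each hold 2 CCAAT matches within the 100 bp shown.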

How the data were processed

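H3K27Ac ChIP-seq libraries of C10 cells at 12 and 24 hpi were compared, with 0, 3 and 48 hpi, H3K4Me1 and H3K27Me3 as reference. The authors aligned reads to mm9 with Eland or Bowtie without mismatches and removed identical tags and tags aligning more than once; the aligner of each library is not given in the sources used here. The deposited files list tag positions of 36 bp and no counts, signal or other values, so tags were counted here. Tags beyond the first at a position made up 3.74% (12 hpi) and 5.57% (24 hpi). Positions were read without strand, so whether these tags were identical cannot be told. After 1 tag per position was kept, libraries were thinned at random to 16337629 tags. In the 24 hpi file, 2 closing lines without position were dropped.

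Gene starts came from GENCODE vM1 on NCBIM37, whose chromosome names and lengths are those of mm9. Distal windows were centred on bins of 1000 bp enriched (Poisson tail below 0.001) in the sum of both libraries, fullest first, with centres at least 3000 bp apart. Exact binomial 95% intervals of the tag ratio cover counting error only. Called means past 2-fold, with no test. Named were the 10 starts and 6 distal windows with the largest rise and fall called under all 3 scalings, without model names and olfactory or histone genes, and from each list called members and up to 3 extremes either way; further list members, neighbouring clusters and genes with several windows were named after their values were seen. Some genes the rule or lists name are not reported here. Members, lists and motifs were chosen with earlier results of these data known. Alternatives covered scaling, tags added, window, filter, random draw and choice of start or window. Counting and window picking were tested on simulated data. Tools were numpy 2.4.6, pandas 2.3.3, scipy 1.17.1, pysam 0.24.0 and matplotlib 3.10.9.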

Additional observations from a re-analysis of the deposited data

Results flagged for a closer look

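Tags outside the chromosomes compared exceeded the 3 that a count of 0 allows. Chromosome Y held 1108 positions at 12 hpi and 1173 at 24 hpi. Unplaced chromosomes held 10090 tags at 12 hpi and none were listed at 24 hpi.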

How the results depend on the processing

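No paired analysis was possible because each time had 1 library. Of 102 recomputed counts and medians under 20 alternatives, 60 were close to the reported value (counts within 1.5 times, medians between 0.073 and 0.085 at starts and 0.204 and 0.217 in distal windows) and 42 moved; why each moved was not tested. The median at starts, 0.08, turned negative with bins enriched in both set equal and with no filter on level. At starts, background bins gave 1634 higher, 28 lower and a median of 0.77; bins enriched in both a median of -0.070; windows of like level or like GC a median of 0 and -6.24e-05; background taken off 0.093; deposited tags 0.066. No filter on level gave 1211 lower and a median of -0.064, a filter at 4-fold 75 lower and 0.087, and 20 tags added 83 lower.

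In distal windows, background bins gave 14666 higher, 65 lower and 0.89; bins enriched in both 997 lower and 0.065; like level 2637 higher, 1253 lower and 0; like GC, an alternative added after seeing the data, 2532, 1272 and 0; background taken off a median of 0.25. With 1 and 20 tags added the medians were 0.22 and 0.19, and 20 tags left 299 lower. Windows of 6 kb gave 367 lower and 0.19, deposited tags 0.20, no filter 1022 lower and 0.18, and a 4-fold filter 2590 higher, 277 lower and 0.23. Windows chosen at 12 hpi gave 0.16, those at 24 hpi 395 lower and 0.24, and 1 window per region 2619 higher, 368 lower and 0.24. The second draw, no thinning, the start with most tags, and windows chosen at 0, 3 and 48 hpi or over 5000 bp from a start stayed close. A call that also needs the counting interval beyond no change gave the same counts. It could not differ, since a measured window past 2-fold holds enough tags to meet it, yet it is counted among the alternatives. Depth limits starts of level 2 to 4, whose median was 63 tags at 12 hpi.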

Other observations

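By total tags the median change per chromosome ran, at gene starts, from 0.04 on chromosome 13 to 0.14 on chromosome X, and in distal windows from 0.14 on chromosome 11 to 0.37 on chromosome X. The direction at starts depends on the scaling, since the median of all starts was -0.070 with bins enriched in both set equal.

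By nearest start, 529 genes held a fallen distal window and 16 at least 3 of them. By total tags 1.8% of all measured distal windows were lower, and with background bins set equal 0.185%. By total tags Slc22a12, a urate transporter, had 5 of 11, Cecr2, a chromatin remodelling factor, 4 of 20, and Dgkg, a diacylglycerol kinase, 3 of 12. The median changes over the windows of these genes were -0.08, -0.50 and -0.69. These genes were chosen after their values were seen.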
